A study of Mus musculus with 8 samples.

Results

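The 10 genes described here encode histone lysine demethylases with a Jumonji C (JmjC) domain, and were taken by name from a deposited table of 23366 genes. All 10 (Kdm2a, Kdm2b, Kdm3a, Kdm3b, Kdm4a, Kdm4b, Kdm4c, Kdm5a, Kdm5b and Kdm6b) had a row and passed the filter on low values. RNA-seq was done on macrophages grown from the bone marrow of C57BL/6 mice, at passage 1 and after 24 h without serum. The 4 groups, of 2 libraries each, were Lsd1SA/SA knock-in (KI) cells given lipopolysaccharide (LPS) for 2 h, untreated KI cells, wild-type (WT) cells given LPS for 2 h and untreated WT cells. The label dose of LPS, an outer-membrane component of Gram-negative bacteria, is 1 mg/ml. The Lsd1SA/SA alleles encode a form of the demethylase LSD1 that, per the series design, cannot be phosphorylated. The labels give no age or sex, and do not say whether the 2 libraries of a group came from separate animals or cultures. The p-values therefore measure only the spread between these libraries, which may be technical.

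JmjC demethylases use iron, oxygen and 2-oxoglutarate to remove methyl groups from histone lysines, and unlike the flavin-dependent LSD1 many of them can act on trimethylated lysine. The subfamilies differ in the residue they act on: KDM2 enzymes on H3K36, KDM3 on H3K9, KDM4 on H3K9 and H3K36, KDM5 on H3K4 and KDM6 on H3K27. In mouse macrophages Kdm6b, also called Jmjd3, is known as a gene that inflammatory signals switch on, and H3K27 trimethylation, which its enzyme removes, marks genes silenced by Polycomb proteins.

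Libraries held 40379258 to 55595160 reads, and the 10 genes had 441 to 10806 reads in each library. Levels are normalized reads per gene in the form of TMM-scaled CPM, and their coefficient of variation between the 2 libraries of a group had a median of 2.28% over the members and a maximum of 9.66%. The defining macrophage markers were present in every group: the 9 of the list found in the table summed to 12235 to 12885 in KI cells with LPS, 13961 to 14624 in untreated KI cells, 17579 to 17962 in WT cells with LPS and 14162 to 14206 in untreated WT cells. The KI libraries with LPS stood apart in sex-linked transcripts. Xist, the RNA that coats the inactive X chromosome, was at 0.366 and 0.212 there, against 315 to 437 in the other 6 libraries. The KI cells with LPS thus differed in sex from the untreated KI cells and from both WT groups. In every comparison below that uses them, LPS or genotype and the sex of the cells cannot be told apart. Whether these 2 libraries carry the right label was not tested, and every value given for KI cells with LPS is that of the libraries so labelled. Sums of other marker lists moved with LPS, those of the stromal markers and of the B and T cell markers mainly in KI cells. The 9 stromal markers summed to 57.2 and 57.3 in KI cells with LPS against 17.8 and 19.7 in untreated KI cells, and to 16.5 and 17.0 in WT cells with LPS against 14.6 and 16.0 in untreated WT cells. The 8 mast cell and basophil markers summed to 89.2 and 92.2 against 37.1 and 38.1 in KI cells, and to 69.1 and 69.2 against 37.7 and 38.2 in WT cells. The 9 neutrophil markers summed to 452 and 462 against 352 and 360.1 in KI cells, and to 750.4 and 770.3 against 353 and 361 in WT cells. The 8 proliferation markers summed to 327 and 346 against 687 and 700.5 in KI cells, and to 1009 and 1029 against 700.2 and 702 in WT cells. Of the 7 dendritic cell markers most of the signal was Itgax, which macrophages also express, at 4.65 and 4.04 against 33.9 and 36.2 in KI cells and 47.1 and 45.5 against 38.3 and 36.2 in WT cells. The 10 B and T cell markers, low in all groups, summed to 7.07 and 8.02 against 12.7 and 13.8 in KI cells. In WT cells they summed to 11.7 and 13.5 against 11.5 and 12.9. The part of these marker lists in the results was not tested.

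In WT macrophages LPS raised Kdm6b 8.07-fold, on the log2(level + 1) scale used throughout, and lowered 6 of the other 9 members, where 26.8% of all genes tested were higher and 30.7% lower. In KI cells with LPS the rise of Kdm6b was 1.22-fold, 2 further members were higher and 1 was lower. The KI count of higher members is near the share over all genes, 28.5%, and that of lower members lies under the 28.3% of all genes. Without LPS none of the 10 passed the test between the genotypes, where 0.00839% of all genes tested were higher and 0% lower. In bulk RNA, a change in the number of cells that express a gene and a change in the RNA per cell cannot be told apart. The plot of levels by library shows these patterns for each gene.

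**Figure D1:**
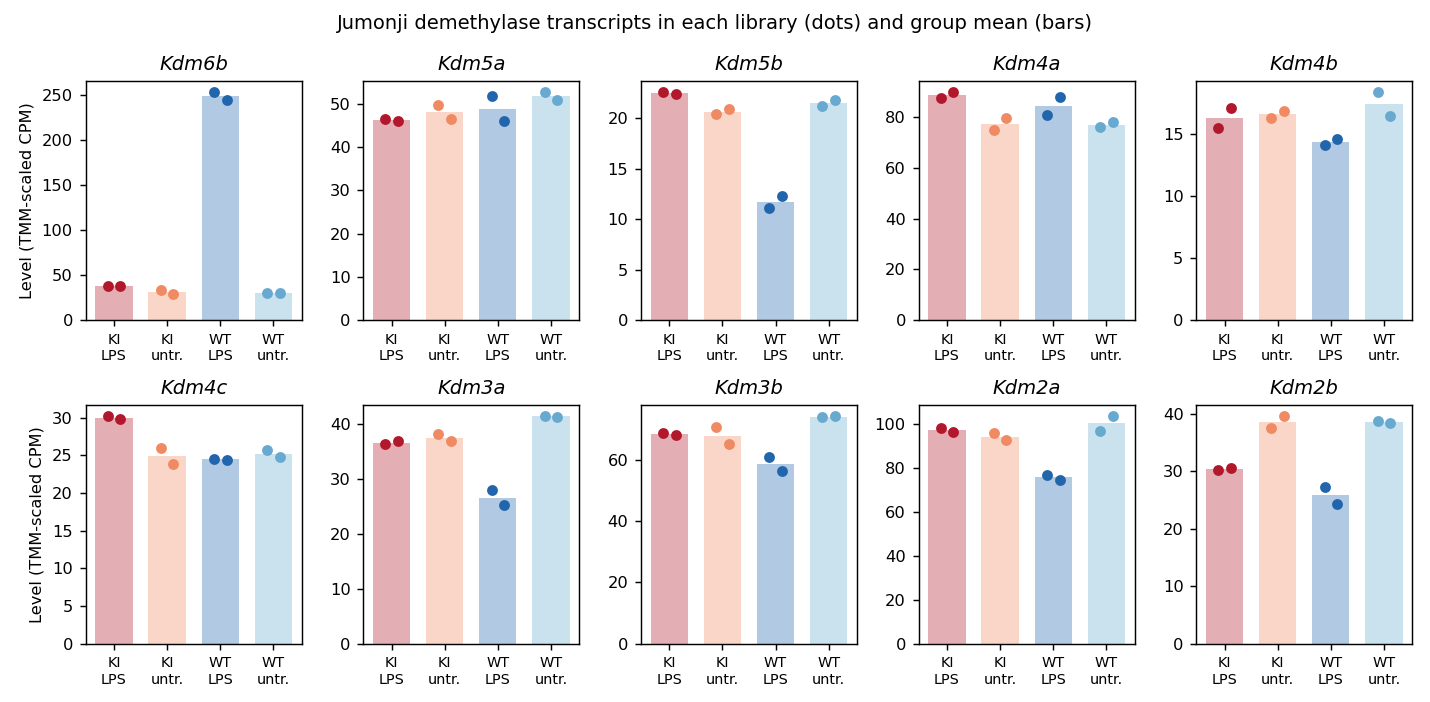
Level of each of the 10 demethylase transcripts (TMM-scaled CPM, each panel on its own axis from 0) in KI cells with LPS, untreated KI cells, WT cells with LPS and untreated WT cells. Dots are the 2 libraries of a group and bars their mean. Kdm6b stands at 253 and 244 in WT cells with LPS and at 38.1 or less in every other library, while Kdm5b and Kdm3a are lowest in WT cells with LPS.

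Kdm6b, the H3K27 demethylase gene, had a level of 38.1 and 37.5 in KI cells with LPS and of 33.0 and 28.8 in untreated KI cells. It had a level of 253 and 244 in WT cells with LPS and of 30.0 and 29.9 in untreated WT cells. The 2 WT libraries with LPS were far above the other 6, which lay between 28.8 and 38.1. Tests were limma on log2(level + 1) over all 11919 genes that passed the filter, with Benjamini-Hochberg adjustment and a threshold of 0.05. The WT change was 3.01 on the log2 scale (SE 0.0626, limma adjusted p = 1.45e-22), the rank of 153 from the top among all genes tested. In KI cells the change was 0.29 (SE 0.0626, limma adjusted p = 0.000459), with both LPS libraries above both untreated ones. It was 0.19 without replicate 2 of untreated KI cells and stayed past the threshold (limma adjusted p = 0.0310). The difference between the KI and the WT response, tested as an interaction, was -2.73 (SE 0.0885, limma adjusted p = 2.89e-18).

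KI cells with LPS also had less Kdm6b than WT cells with LPS, by a log2 difference of -2.68 (SE 0.0626, limma adjusted p = 1.45e-21). Between untreated KI and WT cells the difference was 0.042, with a 95% interval of -0.087 to 0.17 (limma adjusted p = 0.808). In the annotation of another genome build, an antisense gene, Kdm6bos, overlaps 4.30% of the exon bases of Kdm6b. The use of strand in the counting is not given in the sources used here, so reads of the antisense gene cannot be told apart. The 6 early inflammatory genes followed beside the members (Tnf, Il1b, Cxcl2, Nfkbia, Tnfaip3 and Il6) summed to 188 and 191 in KI cells with LPS against 139 and 141 in untreated KI cells. In WT cells they summed to 11647 and 11688 with LPS, against 129 and 138 untreated.

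The 5 genes whose log2 levels over the 8 libraries had the highest Pearson correlation with Kdm6b were Csf1, which encodes a macrophage growth factor, Lpin2, a phosphatidate phosphatase gene, Nod2, a receptor gene for bacterial cell wall fragments, the chemokine gene Cxcl11 and Ifnb1, the gene for interferon beta. Their correlations were 0.9994 to 0.9996, as a description without a test. The 8 points share their libraries, and the 2 WT libraries with LPS stand apart for all of these genes, so that the correlations rest on them. Csf1 was at 9.41 and 9.35 in KI cells with LPS and at 8.01 and 6.66 in untreated KI cells. It was at 129 and 137 in WT cells with LPS and at 6.76 and 6.53 in untreated WT cells. Cxcl11 and Ifnb1 were listed at 0 in some untreated libraries.

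Among the H3K4 demethylase genes, Kdm5b fell with LPS in WT cells, and Kdm5a did not pass the test there on the values as deposited. Kdm5b had a level of 22.6 and 22.4 in KI cells with LPS and of 20.4 and 20.9 in untreated KI cells. In WT cells it had a level of 11.1 and 12.3 with LPS and of 21.2 and 21.8 untreated. The 2 WT libraries with LPS lay below the other 6. Kdm5b fell by 0.83 on the log2 scale in WT cells (SE 0.0795, limma adjusted p = 2.49e-09), the largest decrease among the members. In KI cells its change was 0.12 and did not pass (limma adjusted p = 0.212). The responses differed by 0.95 (SE 0.112, limma adjusted p = 9.90e-08), and Kdm5b was 0.89 higher in KI than in WT cells with LPS (limma adjusted p = 4.31e-10).

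Kdm5a lay between 46.1 and 52.7 in all 8 libraries. Its level was 46.5 and 46.2 in KI cells with LPS, 49.8 and 46.6 in untreated KI cells, 51.8 and 46.1 in WT cells with LPS and 52.7 and 50.9 in untreated WT cells. No comparison of Kdm5a passed the test on the values as deposited, and the 95% interval of its WT change on the log2 scale was -0.21 to 0.049. Other scalings gave calls: the WT change was -0.19 after quantile normalization (limma adjusted p = 0.0116) and -0.37 with scaling to equal sums (limma adjusted p = 3.03e-05). With equal sums the responses differed by 0.27 (limma adjusted p = 0.0132). KI cells with LPS then had more Kdm5a than WT cells with LPS, by 0.15 (limma adjusted p = 0.0483), against -0.075 as deposited.

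Kdm3a and Kdm3b, whose enzymes act on mono- and dimethylated H3K9, were lower in WT cells with LPS. Jmjd1c, the third gene of that subfamily and not among the 10, was higher there, at 186 and 156 against 122 and 126 in untreated WT cells (log2 change 0.45, limma adjusted p = 4.12e-06). Kdm3a is also known as a hypoxia-induced gene. Its level was 36.3 and 37.0 in KI cells with LPS and 38.2 and 37.0 in untreated KI cells. It was 28.0 and 25.3 in WT cells with LPS and 41.5 and 41.4 in untreated WT cells. The WT change was -0.62 on the log2 scale (SE 0.0663, limma adjusted p = 1.70e-08), against -0.035 in KI cells (limma adjusted p = 0.672). The responses differed by 0.59 (SE 0.0938, limma adjusted p = 8.63e-06).

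Kdm3b followed the same course with a smaller size. Its level was 68.8 and 68.2 in KI cells with LPS, 70.5 and 65.0 in untreated KI cells, 60.8 and 56.4 in WT cells with LPS and 73.9 and 74.2 in untreated WT cells. The WT change was -0.33 (SE 0.0576, limma adjusted p = 2.49e-05) and the KI change 0.017 (limma adjusted p = 0.815). The responses differed by 0.35 (SE 0.0814, limma adjusted p = 0.000656). With LPS, KI cells had more Kdm3a, by 0.45 on the log2 scale, and more Kdm3b, by 0.22 (limma adjusted p = 1.82e-06 for Kdm3a and 0.00131 for Kdm3b).

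The KDM2 genes encode F-box and zinc finger proteins that bind unmethylated CpG islands, and KDM2B recruits a variant Polycomb complex to them. Kdm2a had a level of 97.9 and 96.3 in KI cells with LPS and of 95.6 and 92.4 in untreated KI cells. It had a level of 76.8 and 74.4 in WT cells with LPS and of 96.7 and 103 in untreated WT cells. The 2 WT libraries with LPS were lowest, and the other 6 lay between 92.4 and 103. The change was -0.40 in WT cells (SE 0.0525, limma adjusted p = 5.08e-07) and 0.047 in KI cells (limma adjusted p = 0.469), and the responses differed by 0.45 (limma adjusted p = 1.47e-05).

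Kdm2b was the only member called lower with LPS in both genotypes. Its level was 30.2 and 30.5 in KI cells with LPS and 37.5 and 39.6 in untreated KI cells. It was 27.3 and 24.3 in WT cells with LPS and 38.7 and 38.4 in untreated WT cells. In each genotype the LPS libraries lay below the untreated ones. The change was -0.33 in KI cells (SE 0.0691, limma adjusted p = 0.000265) and -0.57 in WT cells (SE 0.0691, limma adjusted p = 1.57e-07). The responses differed by 0.23 (limma adjusted p = 0.0405). That call was lost under 10 of 19 alternatives, in a range of adjusted p of 0.000238 to 0.202, with the highest value and a difference of 0.15 without replicate 2 of WT cells with LPS. With LPS, Kdm2b was 0.23 higher in KI than in WT cells (limma adjusted p = 0.00449), but 0.15 without the same library (limma adjusted p = 0.0961). Exons of Rnf34 and A930024E05Rik on the other strand overlap 14.1% of the exon bases of Kdm2b.

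The RefSeq promoter table (GRCm38.p6) held windows for 5 of the 10 members, Kdm2b, Kdm3a, Kdm4a, Kdm4c and Kdm5b. Windows run from 250 bases before to 50 bases after an annotated start. Those of the 3 members with the largest WT decreases are shown, because these genes moved together in WT cells with LPS. Where a gene has several starts, the first listed is given. The window of Kdm5b is chr1:134559928-134560227 on the plus strand, that of Kdm2b is chr5:122988458-122988757 on the minus strand and that of Kdm3a is chr6:71632868-71633167 on the minus strand. Capitals mark matches, on either strand, to a loose form of the kB site that NF-kB binds: GGG and CC with 5 bases of any kind between them.
Kdm5b: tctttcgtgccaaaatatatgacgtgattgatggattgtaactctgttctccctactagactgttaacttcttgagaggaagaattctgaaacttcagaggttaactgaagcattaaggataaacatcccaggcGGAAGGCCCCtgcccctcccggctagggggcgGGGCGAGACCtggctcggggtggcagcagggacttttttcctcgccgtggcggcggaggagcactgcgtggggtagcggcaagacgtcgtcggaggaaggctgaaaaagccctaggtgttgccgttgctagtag
Kdm2b: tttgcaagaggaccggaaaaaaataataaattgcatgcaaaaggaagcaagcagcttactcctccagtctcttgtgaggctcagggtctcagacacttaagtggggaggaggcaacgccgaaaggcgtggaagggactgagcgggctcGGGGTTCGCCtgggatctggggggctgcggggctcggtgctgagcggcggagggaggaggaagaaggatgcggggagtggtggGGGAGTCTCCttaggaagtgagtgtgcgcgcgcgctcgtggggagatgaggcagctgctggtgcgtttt
Kdm3a: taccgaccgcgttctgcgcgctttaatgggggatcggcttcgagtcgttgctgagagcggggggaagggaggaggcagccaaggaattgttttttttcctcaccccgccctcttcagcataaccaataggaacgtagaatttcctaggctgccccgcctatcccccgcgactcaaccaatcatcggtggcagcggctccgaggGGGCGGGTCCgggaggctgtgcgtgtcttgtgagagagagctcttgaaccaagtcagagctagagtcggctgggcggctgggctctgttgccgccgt
There were 2 matches in the Kdm5b window, 2 in the Kdm2b window and 1 in the Kdm3a window. The kB letters occur in 50.8% of the 32851 promoter windows of the table, and a match is not a site of binding. Other listed starts of Kdm2b had 1 to 10 matches and those of Kdm3a 2 each. The AP-1 letters TGANTCA, found in 7.81% of all windows, were in none of the 3 shown but once in each of the other 2 Kdm3a windows. The windows shown hold 17, 18 and 24 CG pairs for Kdm5b, Kdm2b and Kdm3a, against a median of 7 over all windows.

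Of the KDM4 genes, whose enzymes remove trimethylation of H3K9 and H3K36, 2 passed the test as higher in KI cells with LPS. Of all genes tested 28.5% were higher there. In WT cells 1 passed as lower, where 30.7% of all genes were lower. Kdm4a had a level of 87.4 and 89.8 in KI cells with LPS and of 74.9 and 79.8 in untreated KI cells. It had a level of 80.9 and 87.9 in WT cells with LPS and of 76.3 and 78.0 in untreated WT cells. It rose in KI cells (log2 change 0.19, SE 0.0556, limma adjusted p = 0.00489), a call lost without replicate 2 of KI cells with LPS (limma adjusted p = 0.0531) or replicate 1 of untreated KI cells (limma adjusted p = 0.0848). The difference of the KI and WT responses was 0.067 and did not pass (limma adjusted p = 0.472). In WT cells the change was 0.13 and did not pass (limma adjusted p = 0.0549). It passed as a rise with median-of-ratios scaling, by edgeR and by DESeq2. With scaling to equal sums it was -0.17 there (limma adjusted p = 0.00879), and KI cells with LPS had 0.29 more than WT cells with LPS (limma adjusted p = 4.45e-05), against 0.071 as deposited.

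Kdm4c had a level of 30.2 and 29.8 in KI cells with LPS and of 26.0 and 23.8 in untreated KI cells. It had a level of 24.5 and 24.4 in WT cells with LPS and of 25.7 and 24.8 in untreated WT cells. The 2 KI libraries with LPS were above all others. The change was 0.26 in KI cells (SE 0.0713, limma adjusted p = 0.00341) and -0.043 in WT cells (limma adjusted p = 0.634), and the responses differed by 0.30 (limma adjusted p = 0.0116). Without replicate 2 of untreated KI cells the KI change was 0.20 (limma adjusted p = 0.0681) and the difference of responses 0.24 (limma adjusted p = 0.0736). With scaling to equal sums the WT change was -0.33 (limma adjusted p = 0.000328).

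Kdm4b had a level of 15.5 and 17.1 in KI cells with LPS and of 16.4 and 16.9 in untreated KI cells. It had a level of 14.1 and 14.6 in WT cells with LPS and of 18.4 and 16.5 in untreated WT cells. It fell in WT cells (log2 change -0.26, SE 0.0858, limma adjusted p = 0.0113). The call was lost without replicate 1 of WT cells with LPS (limma adjusted p = 0.0643) or replicate 1 of untreated WT cells (-0.19, limma adjusted p = 0.122). The difference of the responses was 0.24, with a 95% interval of -0.013 to 0.49 (limma adjusted p = 0.0913). It was 0.47 with scaling to equal sums (limma adjusted p = 0.00165).

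**Figure D2:**
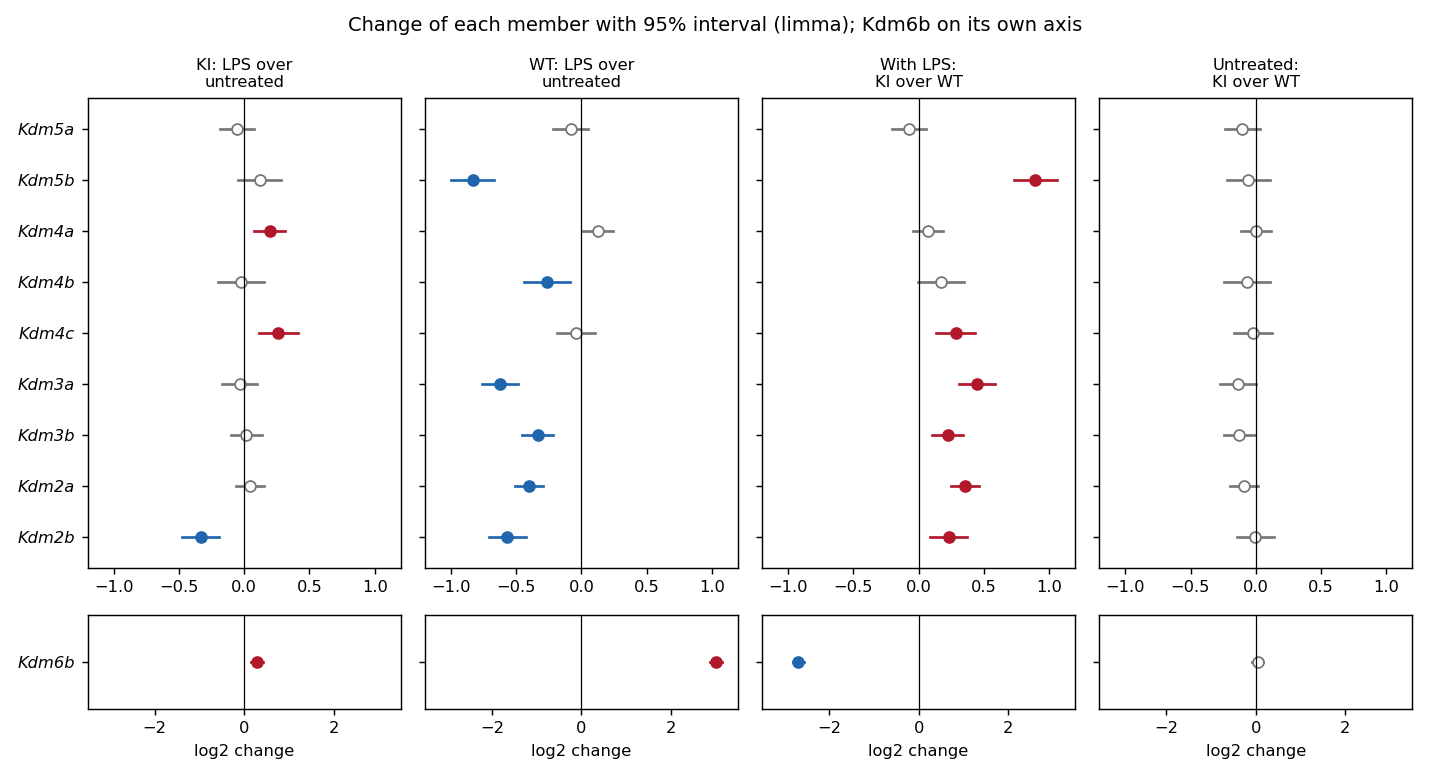
Log2 change of each member with its 95% interval (limma) in the LPS comparison within KI and within WT cells, and between KI and WT cells with LPS and untreated; Kdm6b has its own axis in the lower row. Filled points passed the threshold (red higher, blue lower) and open points did not. In WT cells 6 of the 9 upper genes lie left of 0 as filled points and Kdm6b lies at 3.01, and in the untreated comparison all 10 points are open.

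Over the 10 members, LPS in KI cells gave 3 higher (Kdm6b, Kdm4a and Kdm4c) and 1 lower (Kdm2b), where 28.5% of all genes tested were higher and 28.3% lower. Their median log2 change was 0.032, and that of all genes was 0.016. LPS in WT cells gave 1 higher and 6 lower, where 26.8% of all genes were higher and 30.7% lower. The median was -0.30 for the members and -0.032 for all genes. Of all genes called in WT cells 46.6% were higher, and this share was 52.0% when scaled by the median of ratios, 35.4% after quantile normalization and 17.5% with scaling to equal sums, which moved the typical gene by -0.28. The 6 decreases and the rise of Kdm6b passed under all 3 scalings tried. As deposited, 8 of the 10 members lay below the median of all genes, and 8 after quantile normalization. The other scalings use 1 factor per library and move all genes nearly alike, so they could not test this count.

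KI against WT cells with LPS gave 6 members higher and 1 lower, where 38.5% of all genes were higher and 36.8% lower. The 6 were Kdm2a, Kdm2b, Kdm3a, Kdm3b, Kdm4c and Kdm5b, the same genes whose responses differed in the positive direction. The interaction had 6 members higher and 1 lower, where 31.8% of all genes were higher and 31.8% lower. With scaling to equal sums the share of higher among all genes called was 67.6% for KI against WT cells with LPS (51.1% as deposited) and 70.6% for the interaction (3794 genes in each direction as deposited), and the called members kept their directions. These comparisons share libraries with those within each genotype. Untreated KI against untreated WT cells gave 0 of 10 members in either direction by limma, as by edgeR and DESeq2, where 0.00839% of all genes were higher and 0% lower. At an unadjusted p under 0.05, 2 members (Kdm3a and Kdm3b) were lower in untreated KI cells, with log2 differences of -0.14 and -0.13. Over all genes 13.6% had such a p, so that 2 of 10 is near that share. Summed over the 9 members other than Kdm6b, levels were 435 and 437 in KI cells with LPS and 429 and 422 in untreated KI cells. The sums were 375 and 366 in WT cells with LPS and 445 and 449 in untreated WT cells.

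Levels of different genes were compared per kb of exon, with exon lengths from the GENCODE vM21 annotation, which may differ from the authors' gene models. In KI cells with LPS, Kdm6b stood at 5.68 ± 0.0600 per kb (SD, n = 2), the rank of 6 among the 10 members, and in untreated KI cells at 4.65 ± 0.449, the rank of 7, where its libraries overlapped those of Kdm5a. In WT cells with LPS it stood at 37.3 ± 0.897 per kb, the highest member and above Kdm4a at 16.7 ± 0.975. In untreated WT cells it stood at 4.50 ± 0.0114, the rank of 8. Kdm4a was the highest member in the other 3 groups, at 17.5 ± 0.335 in KI cells with LPS, 15.3 ± 0.690 in untreated KI cells and 15.3 ± 0.230 in untreated WT cells. Kdm3b and Kdm2a followed, and their libraries overlapped each other in both untreated groups. Kdm5b was the lowest member in all 4 groups, at 2.45 ± 0.0109, 2.24 ± 0.0388, 1.27 ± 0.0902 and 2.34 ± 0.0467 per kb in KI cells with LPS, untreated KI cells, WT cells with LPS and untreated WT cells.

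**Figure D3:**
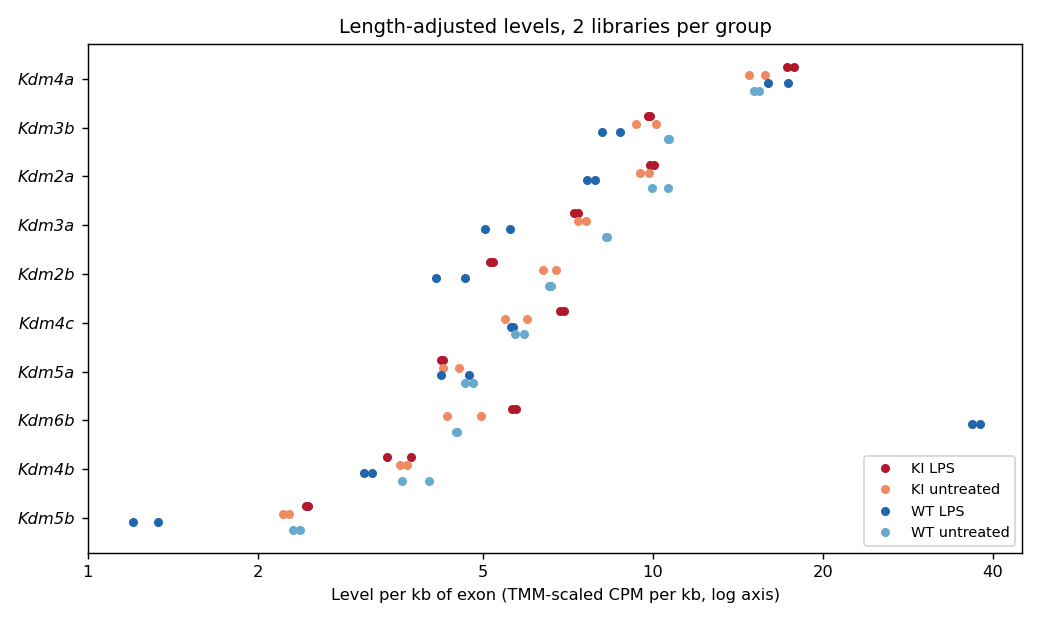
Levels of the members per kb of exon (TMM-scaled CPM per kb, log axis), ordered by their level in untreated WT cells, with 1 dot per library and 4 groups of 2 libraries. Kdm6b moves to the far right in WT cells with LPS (37.3 per kb) and lies at 4.50 per kb in untreated WT cells, while Kdm5b is lowest in all 4 groups.

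Of 21 other genes with a JmjC domain in the table, 19 were tested. In KI cells 9 were higher with LPS and 6 lower (median log2 change 0.12), and in WT cells 5 were higher and 6 lower (median -0.084). The 9 include the Y-linked Kdm5d and Uty, which had 0 reads in untreated KI cells. The KI calls of Kdm5d and Uty compare cells of different sex and are not read as a response to LPS. Over all genes 28.5% were higher and 28.3% lower in KI cells, and 26.8% higher and 30.7% lower in WT cells, so the WT counts are near those shares. Jarid2, which encodes a catalytically inactive partner of the H3K27 methyltransferase complex, had a level of 15.7 and 14.5 in KI cells with LPS, against 18.3 and 16.8 in untreated KI cells. In WT cells it had a level of 37.1 and 41.5 with LPS, against 16.7 and 16.9 untreated. Its log2 change was -0.20 in KI cells (limma adjusted p = 0.0358) and 1.18 in WT cells (limma adjusted p = 5.18e-12), a difference of -1.38 (limma adjusted p = 2.22e-10). Jmjd4, which encodes a lysyl hydroxylase of a translation termination factor, moved the other way. It had a level of 12.4 and 12.2 in KI cells with LPS against 8.43 and 7.68 in untreated KI cells, and of 2.29 and 2.85 in WT cells with LPS against 9.38 and 7.71 in untreated WT cells. Its log2 changes were 0.55 in KI cells and -1.42 in WT cells, and the responses differed by 1.97 (limma adjusted p = 2.10e-10).

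Kdm5c and Kdm6a, the X-linked relatives of Kdm5b and Kdm6b, are known to escape X inactivation in mice, and the Y chromosome carries their counterparts Kdm5d and Uty. Kdm5d had a level of 10.2 and 8.80 and Uty of 23.8 and 20.3 in KI cells with LPS, and both had 0 reads in the other 6 libraries, where 3 reads would have been a level of at most 0.0754. Kdm5c had a level of 56.9 and 58.2 in KI cells with LPS and of 73.7 and 69.5 in untreated KI cells. In WT cells Kdm5c had a level of 115 and 113 with LPS and of 71.1 and 71.7 untreated. Its log2 change was -0.31 in KI cells and 0.67 in WT cells (limma adjusted p = 2.72e-05 and 8.18e-11). Kdm6a fell in both, by 0.35 in KI cells and by 0.32 in WT cells (limma adjusted p = 0.000128 and 0.000346), and the responses differed by -0.035 (limma adjusted p = 0.768). The KI changes of these X-linked genes compare cells of different sex. Kdm1a, the gene for LSD1 itself, had a level of 39.3 and 40.4 in KI cells with LPS, 33.7 and 32.6 in untreated KI cells, 47.3 and 45.8 in WT cells with LPS and 33.9 and 31.1 in untreated WT cells. These levels do not check the knock-in, which alters the protein.

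**Figure D4:**
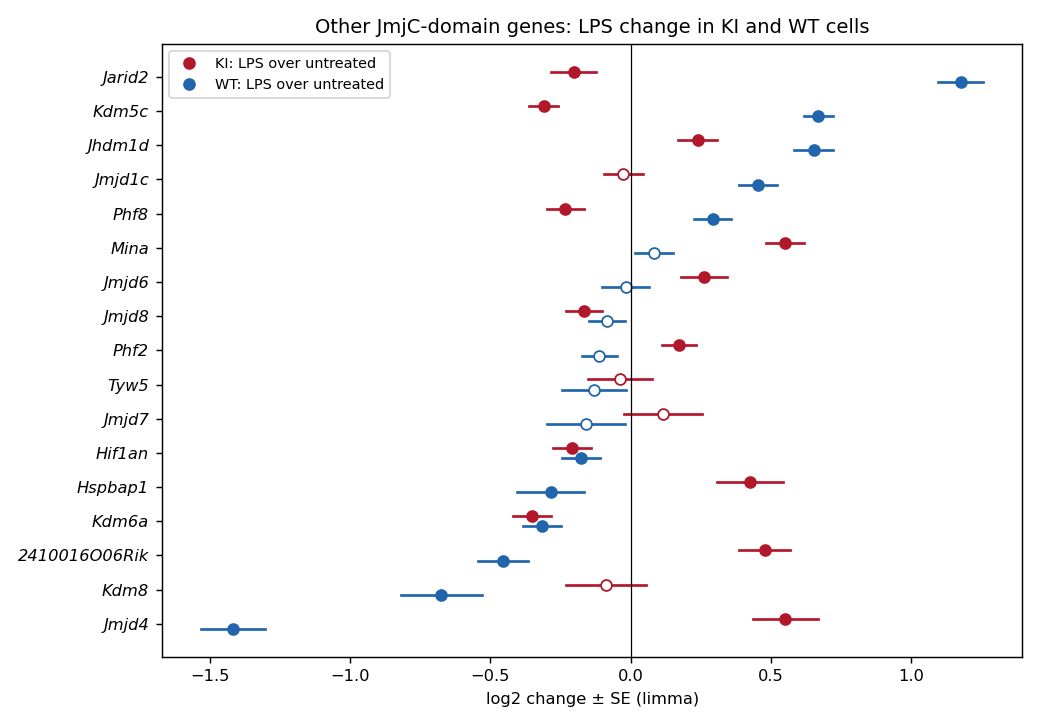
Log2 change with LPS (± SE, limma) of 17 other JmjC-domain genes in KI cells (red, upper) and WT cells (blue, lower), without the Y-linked Kdm5d and Uty; filled points passed the threshold. Jarid2 and Kdm5c lie right of 0 in WT cells (1.18 and 0.67) and left of 0 in KI cells, and Jmjd4 lies at 0.55 in KI cells and at -1.42 in WT cells.

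Enzymes that place the marks which the members remove were followed as lists. All list counts below stand against 28.5% of all genes higher and 28.3% lower in KI cells, and 26.8% higher and 30.7% lower in WT cells, and many are near these shares. Of 8 H3K9 methyltransferase genes, LPS gave 3 higher and 3 lower in KI cells, and 1 higher and 5 lower in WT cells. The decreases in WT cells included Ehmt1 (-0.71), Suv39h2 (-0.64) and Setdb1 (-0.58), with a list median of -0.46. Of 6 H3K36 methyltransferase genes, 1 was higher and 0 lower in KI cells, and 1 higher and 4 lower in WT cells, among them Setmar (-0.68) and Nsd1 (-0.66). Of 11 H3K4 methyltransferase genes tested, 3 were higher and 3 lower in KI cells, and 2 higher and 5 lower in WT cells, with Setd7 at -0.67 in KI cells and -0.87 in WT cells. Of 10 genes of the H3K27 methyltransferase complex PRC2, 2 were higher and 5 lower in KI cells, and 2 higher and 1 lower in WT cells. In KI cells Phf19 (-1.81) and Ezh2 (-0.83), the catalytic subunit gene, fell. In WT cells Aebp2, an accessory subunit gene, rose by 2.10, to 173 and 187 with LPS against 41.0 and 41.5 untreated.

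Of 9 genes for subunits and partners of the variant Polycomb complex that contains KDM2B, 2 were higher and 0 lower in KI cells with LPS, and 3 higher and 2 lower in WT cells. Bcor, a corepressor subunit, had a level of 22.3 and 23.3 in KI cells with LPS against 23.3 and 20.7 in untreated KI cells. In WT cells Bcor had a level of 131 and 141 with LPS against 23.0 and 22.9 untreated. Its log2 change was 0.051 in KI cells (limma adjusted p = 0.552) and 2.52 in WT cells (limma adjusted p = 3.63e-20). Rnf2, the ubiquitin ligase subunit, rose in both (0.18 and 1.16), and Pcgf1 fell in WT cells (-0.56). Of 8 other 2-oxoglutarate dioxygenase genes tested, 3 were higher and 3 lower in KI cells and 2 higher and 4 lower in WT cells, with the DNA demethylation genes Tet2 at -0.50 in KI cells and 0.49 in WT cells, and Tet3 at -0.99 in WT cells. Of 13 hypoxia factors and targets tested, 4 were higher and 3 lower in KI cells and 5 higher and 2 lower in WT cells, and Hif1a rose in both (0.25 in KI cells and 0.82 in WT cells).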

How the data were processed

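The deposited table held 23366 genes in 8 libraries. Its values are a signal that the authors made from read counts by dividing them by a scaled library size. That form was inferred: within a column, values are multiples of the amount for 1 read, and 100% of those above 0 came out whole within a tolerance of 0.001. TopHat2 2.0.9, bedtools, edgeR and mm9 are named in the submitters' processing notes. How reads were assigned to genes, whether strand was used, and the annotation: not given in the sources used here.

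The test was limma 3.58.1 (R 4.3.3) on log2(value + 1), with a variance trend, in 1 model of 4 group means over all 8 libraries (4 residual degrees of freedom). Genes with a value of at least 1 in 2 libraries were kept (11919), and p-values were adjusted by Benjamini-Hochberg within each of 5 comparisons. Recovered reads were tested with edgeR 4.0.16 and DESeq2 1.42.0 as alternatives. For LPS in WT cells edgeR called 3528 genes higher and 3314 lower, and DESeq2 3350 and 3135. The limma script was tested on simulated data. The members and gene lists were chosen with earlier results of these data known. Named are the members, Kdm1a, up to 4 called genes per list with the largest change, the other JmjC-domain genes, and the 5 genes most like Kdm6b. Promoter sequences are from RefSeq. Exon lengths and overlaps are from GENCODE vM21 (GRCm38), so no coordinates of the counted genes are given. Of the values worth 1 to 20 reads, 70.2% to 72.0% were an even number of reads, so many reads may be counted as both mates of a pair, and the number of independent fragments is then smaller than that of reads. The mean chi-square per gene between replicates of a group was 5.72 to 13.7, where independent reads give 1 and reads counted in pairs up to about 2.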

Additional observations from a re-analysis of the deposited data

Results flagged for a closer look

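The LPS response of 7 members differed between the genotypes by the limma test of the difference itself. Of these 6 were higher and 1 lower, where 31.8% of all genes were higher and 31.8% lower. With both directions together, 7 of 10 is near the share over all genes. The higher count lies above its share and the lower count below, a split that was not tested. The difference (response in KI cells minus that in WT cells, log2) was -2.73 for Kdm6b, 0.951 for Kdm5b, 0.586 for Kdm3a, 0.446 for Kdm2a, 0.351 for Kdm3b, 0.304 for Kdm4c and 0.234 for Kdm2b, whose call was lost under 10 of 19 alternatives. KI cells with LPS also differed from the other groups in sex-linked transcripts and in the marker lists given above, and the part of these in the differences was not tested.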

How the results depend on the processing

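Every member was tested in 5 comparisons under 19 to 21 alternatives, which gave 1010 values. Of these, 975 kept the side of the threshold, 17 lost a call and 16 gained one. A further 2 changed sign with a call, both with scaling to equal sums: Kdm4a in WT cells with LPS (-0.17) and Kdm5a in KI against WT cells with LPS (0.15). In 21 cases the sign changed with no call on either side. The cause was not tested. The number of members higher with LPS in WT cells was 1, and it was 2 (Kdm6b and Kdm4a) with median-of-ratios scaling, by edgeR, by DESeq2 and with the replicate number as a block, and 1 to 2 when single libraries were left out. All other counts of members were within 1.5 times. Same-numbered replicates did not deviate together (correlations -0.0837 to 0.0891), so the numbers were not taken to pair the samples, and the replicate block changed no other member's call. Over all genes, scaling to equal sums gave 1628 higher and 7676 lower in WT cells with LPS (3199 and 3662 as deposited), and 5779 higher and 2406 lower in the interaction (3794 each as deposited). For untreated KI against WT cells, limma called 1 gene higher and 0 lower, DESeq2 7 and 24, a robust variance trend 4 and 14, and limma without replicate 1 of untreated WT cells 261 and 220. Members had at least 441 reads in each library, and 2 libraries a group and this depth both limit the precision.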
